A study of Arabidopsis thaliana with 36 samples.

Results

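The nuclear genes of photosystem I, photosystem II and their light harvesting antennae were followed through leaves, buds and flowers of Arabidopsis thaliana labelled as wild type or as triple or quintuple bZIP mutants. The genes were chosen by name, with earlier results of these data already known. Of the 28775 loci in the count tables, 42 are the nuclear LHCA, LHCB, PSA or PSB genes followed here. Of these, 18 belong to photosystem I (6 LHCA and 12 PSA genes) and 24 to photosystem II (14 LHCB and 10 PSB genes). All 42 passed the filter on low counts in every comparison.

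The study kept untreated plants in a cycle of 16 h of light and 8 h of darkness at 100 µmol of light per square metre and second and 60% humidity until the primary inflorescence began to flower. RNA came from 4 tissues (flowers, rosette buds, sink leaves, source leaves) of a quintuple bZIP mutant, a triple bZIP mutant and the wild type, ecotype Col-0 (WT). Each of the 12 groups had 3 biological replicates, which gives 36 libraries. The labels name neither the mutated genes nor their alleles, and they give no plant age, number of plants per replicate or harvest hour. The series title places the S1 bZIP factors in plant architecture and in the sharing of carbon and nitrogen among organs.

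Light harvesting complex proteins bind chlorophyll and pass absorbed energy to the photosystem cores in the thylakoid membrane of the chloroplast. LHCA proteins form the antenna of photosystem I, and LHCB proteins form the trimeric and monomeric antennae of photosystem II. The chlorophyll-binding cores are encoded by the chloroplast genome, whereas the antennae and many outer subunits, named PSA in photosystem I and PSB in photosystem II, are encoded in the nucleus. Their transcripts are among the most abundant in green leaves, and GLK transcription factors activate many of these genes.

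Library totals ran between 18158887 and 25124369 counts. The quintuple mutant's replicates spread more widely than those of the other genotypes: the median coefficient of variation over the 42 genes was 49.7% in its source leaves, 18.2% in its sink leaves, 70.3% in its rosette buds and 37.1% in its flowers, against 20.04%, 6.86%, 17.6% and 3.27% in the same WT tissues. All 5 S1 bZIP genes had counts in every one of the 36 libraries, and because the labels do not say which were mutated, they could not be used to check the genotypes. The 7 floral organ markers summed to between 238 and 470 CPM (counts scaled to a common library size) in flowers of the 3 genotypes. In leaf libraries their sum did not pass 4.57 CPM. Levels below are CPM on a common scale over the 36 libraries, and log2 folds come from the fit of each comparison.

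Promoter windows were read for all 42 genes from RefSeq's TAIR10.1 assembly as the 300 bases before the annotated gene start, and 4 of them are shown because their genes carry the results: LHCB1.3 (AT1G29930) had the highest level of the 42 genes, LHCB1.4 (AT2G34430) and LHCB2.3 (AT3G27690) had the largest folds in mutant flowers, and LHCB1.5 (AT2G34420) is the head-to-head neighbour of LHCB1.4. The sequences are written 5′ to 3′ on the strand of the gene, and capitals mark a match to CACGTG (the G-box) or ACTCAT (an element bound by S1 bZIP proteins) on either strand. LHCB1.3 is read at chr1:10477585-10477884 on the plus strand, LHCB1.4 at chr2:14524307-14524606 on the plus strand, LHCB1.5 at chr2:14523569-14523868 on the minus strand and LHCB2.3 at chr3:10255606-10255905 on the plus strand.
LHCB1.3: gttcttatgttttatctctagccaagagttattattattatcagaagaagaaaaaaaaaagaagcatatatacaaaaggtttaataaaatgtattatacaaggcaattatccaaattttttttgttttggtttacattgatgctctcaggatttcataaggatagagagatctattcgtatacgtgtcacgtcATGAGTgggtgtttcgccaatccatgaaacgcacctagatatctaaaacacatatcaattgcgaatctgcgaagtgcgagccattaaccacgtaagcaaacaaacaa
LHCB1.4: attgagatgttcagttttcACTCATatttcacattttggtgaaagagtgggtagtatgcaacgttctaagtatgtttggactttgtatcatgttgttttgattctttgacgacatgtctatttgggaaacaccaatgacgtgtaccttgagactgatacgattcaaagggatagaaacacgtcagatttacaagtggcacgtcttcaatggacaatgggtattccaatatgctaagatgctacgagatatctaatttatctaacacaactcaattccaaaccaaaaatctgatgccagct
LHCB1.5: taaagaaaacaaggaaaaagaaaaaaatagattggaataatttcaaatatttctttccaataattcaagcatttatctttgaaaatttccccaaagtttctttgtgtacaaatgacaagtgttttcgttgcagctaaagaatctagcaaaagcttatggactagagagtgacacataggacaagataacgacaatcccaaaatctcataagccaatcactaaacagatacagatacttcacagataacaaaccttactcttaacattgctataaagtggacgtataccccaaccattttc
LHCB2.3: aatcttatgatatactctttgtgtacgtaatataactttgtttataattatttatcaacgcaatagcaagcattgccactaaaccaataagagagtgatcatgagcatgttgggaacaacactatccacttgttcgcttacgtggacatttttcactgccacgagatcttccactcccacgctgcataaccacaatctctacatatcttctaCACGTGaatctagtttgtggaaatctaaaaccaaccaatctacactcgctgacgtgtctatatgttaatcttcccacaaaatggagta
The LHCB1.4 window held 1 ACTCAT, the LHCB1.3 window held 1 match to it on the other strand, and the LHCB2.3 window held 1 G-box. Neither motif was in the LHCB1.5 window. A match is a description of these letters and not a binding site.

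Over the 42 windows, the G-box was present in 8, or 19%, against 7.18% of the 26709 windows of all protein-coding genes in the tables. ACTCAT was present in 7 of 42 (16.7%), against 14.7% of all windows, and the I-box GATAAG in 9 of 42 (21.4%), against 14.5%. The CCAAT box was present in 28 of 42 (66.7%), against 52.0%, and the evening element AAAATATCT in 1 of 42 (2.38%), against 2.83%. A G-box was in 3 of 18 photosystem I and 5 of 24 photosystem II windows, and ACTCAT was in 3 of 18 and 4 of 24. Both strands were searched, and no test was run on these shares. Windows of 19 of the 42 genes overlap another annotated gene.

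In WT plants the 42 genes as a sum were highest in sink leaves and lowest in flowers. They took 17.6%, 18.9% and 17.7% of all counts in the 3 sink leaf libraries, 6.97%, 5.87% and 5.53% in rosette buds and 2.59%, 2.75% and 2.85% in flowers, against 9.67%, 13.0% and 10.9% in source leaves. In bulk tissue fewer green cells and less of these transcripts per cell cannot be told apart. Sink leaves had 35 of the 42 genes higher than source leaves and none lower, with a median log2 fold of 0.77, and 13.2% of all tested genes were higher and 9.01% lower (22.2% in either direction). Rosette buds had 41 of 42 lower than source leaves, with a median log2 fold of -1.83 and 32.5% of all tested genes lower (67.4% in either direction). Flowers had all 42 lower, with a median of -2.47 and 33.5% of all tested genes lower (74.8% in either direction). Scaling moves these balances. With library totals alone 1910 tested genes were higher and 5390 lower in sink leaves, beside 2912 and 1980 with TMM scaling, and the median of all tested genes was -0.19. In buds and flowers that median became 0.64 in each, with 12682 higher and 3845 lower in buds and 13188 higher and 4577 lower in flowers. The medians of the 42 genes were then 0.56 in sink leaves, -1.23 in buds and -1.94 in flowers.

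By median the sink leaf gain was largest in the LHCB genes. LHCB1.4, a gene of the major trimeric antenna, had 4954, 6721 and 4588 CPM in WT sink leaves, against 946, 1357 and 807 CPM in WT source leaves. Every sink leaf library was above every source leaf library, and the log2 fold was 2.42 ± 0.24 (SE; edgeR adjusted p = 2.1e-05). LHCB2.3, another trimer gene, had 2811, 3513 and 3347 CPM in sink leaves, against 619, 1224 and 787 CPM in source leaves, a log2 fold of 1.91 ± 0.24 (edgeR adjusted p = 0.000113). Among the PSB genes 5 of 10 passed as higher in sink leaves, and all 10 log2 folds were above 0. The PSB median was 0.49, beside 1.00 for the 14 LHCB genes, 0.80 for the 6 LHCA genes and 0.72 for the 12 PSA genes. LHCA1, a photosystem I antenna protein, had 4174, 5216 and 4839 CPM in sink leaves, against 1822, 2628 and 2486 CPM in source leaves (log2 fold 1.06 ± 0.17; edgeR adjusted p = 0.000601).

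Per kilobase of exon, LHCB1.3 had the highest mean of the 42 genes in each WT tissue. It reached 46314 ± 2762 CPM per kb in sink leaves, 13061 ± 1864 in rosette buds and 3350 ± 178 in flowers, against 23276 ± 6202 CPM per kb in source leaves (SD, n = 3 each). LHCB1.5, LHCB1.1 and PSBO1, the main manganese-stabilising subunit of the oxygen-evolving complex, followed in source leaves at 6810 ± 1419, 6124 ± 2245 and 5595 ± 1057 CPM per kb, and these neighbours did not differ beyond their SDs. The lowest were LHCA6, LHCA5 and LHCB4.3 in sink leaves, rosette buds and source leaves. LHCA5 and LHCA6 are scarce antenna proteins that join photosystem I to the NDH complex, and LHCB4.3 is the least abundant form of the monomeric antenna protein CP29. In source leaves these 3 genes had 205 ± 32.2 (LHCA5), 153 ± 14.3 (LHCB4.3) and 124 ± 21.5 (LHCA6) CPM per kb.

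The tissue order was not the same for every gene. LHCB4.3 had 79.2, 66.4 and 56.3 CPM in WT buds and 150, 136 and 157 CPM in WT flowers, against 200, 241 and 226 CPM in source leaves. Its bud libraries lay below its flower libraries without overlap, a pair that was not tested. LHCB1.4 had 63.9, 71.6 and 72.4 CPM in WT flowers, against 946, 1357 and 807 CPM in source leaves, a log2 fold of -3.95 ± 0.26 (edgeR adjusted p = 5.72e-09), and that was the largest tissue fold of the 42. PSBR, a small subunit of the oxygen-evolving side of photosystem II, had 543, 454 and 397 CPM in buds, against 2255, 2986 and 2387 CPM in source leaves (log2 fold -2.49 ± 0.15; edgeR adjusted p = 5.08e-09).

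**Figure D1:**
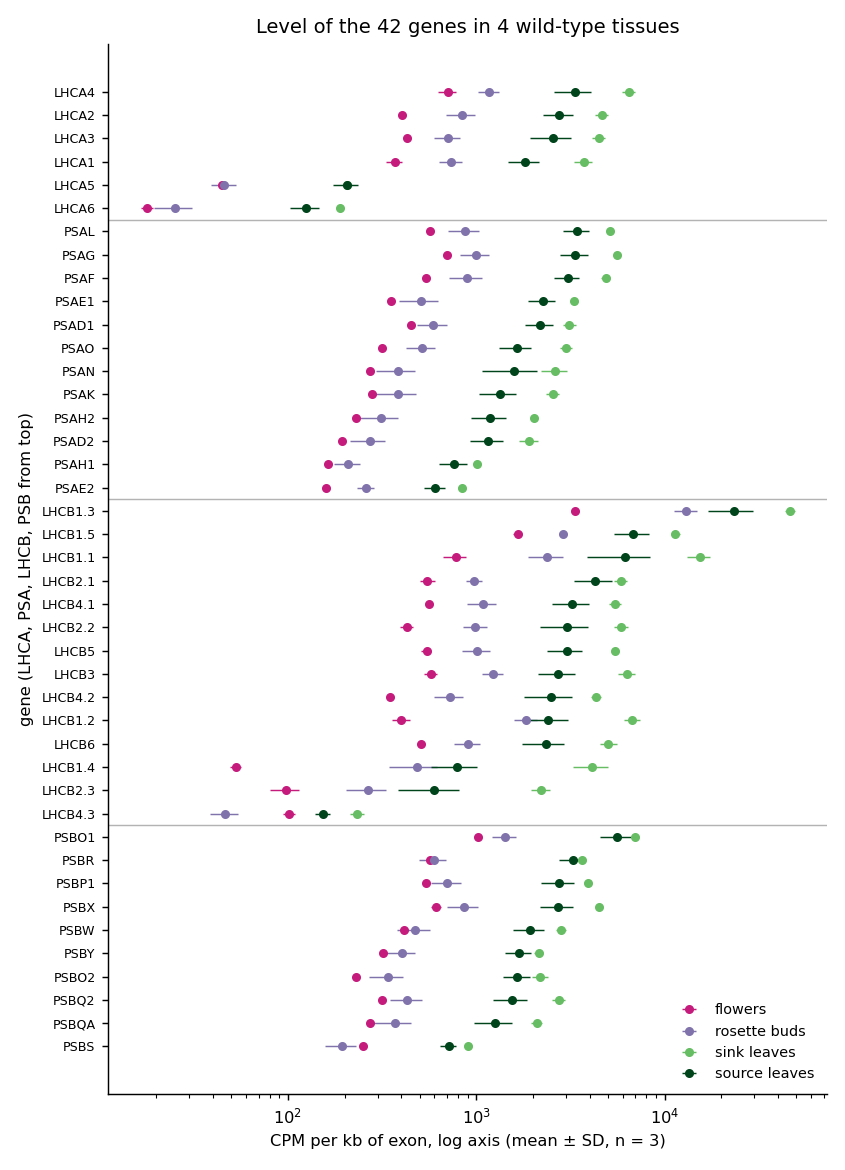
Mean level of each gene per kilobase of exon (CPM per kb, log axis; bars are SD of 3 libraries) in WT flowers, rosette buds, sink leaves and source leaves, with LHCA, PSA, LHCB and PSB genes from top to bottom. LHCB1.3 lies farthest to the right in every tissue, and LHCA6 lies at 17.9 CPM per kb in flowers, against 124 in source leaves.

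In sink leaves of the quintuple mutant 41 of the 42 genes were lower than in WT and none was higher (all 18 of photosystem I and 23 of 24 of photosystem II), while 12.9% of all tested genes were lower and 24.8% passed in either direction. The median log2 fold was -1.36, or 2.57-fold lower, and the range over the 42 genes was -1.92 to -1.01, beside a median of 0.03 for all tested genes. The genes took 7.76%, 11.6% and 9.97% of all counts in the quintuple mutant, against 17.6%, 18.9% and 17.7% in WT. No quintuple library overlapped a WT library for any of the 42 genes, and 23.6% of all tested genes were lower without overlap.

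Among the photosystem I antenna genes, LHCA1 had 1244, 1567 and 1445 CPM in quintuple sink leaves, against 4174, 5216 and 4839 CPM in WT, 3.31-fold lower (log2 fold -1.73 ± 0.16; edgeR adjusted p = 0.00376). LHCA6 had 68.1, 83.0 and 73.1 CPM in the quintuple mutant, against 215, 220 and 221 CPM in WT (log2 fold -1.54 ± 0.13; edgeR adjusted p = 0.00376). All 6 LHCA genes fell, with a median log2 fold of -1.47. Among the PSA genes, PSAD2, a stromal subunit at the ferredoxin docking site, had 527, 674 and 601 CPM in the quintuple mutant, against 1571, 1952 and 1946 CPM in WT (log2 fold -1.59 ± 0.16; edgeR adjusted p = 0.00376). PSAL, a membrane subunit on the side where LHCII docks, had 1898, 2507 and 2194 CPM, against 5606, 5963 and 5941 CPM in WT (log2 fold -1.39 ± 0.15; edgeR adjusted p = 0.00376). All 12 PSA genes fell, with a median of -1.38.

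On the photosystem II side, LHCB4.3 fell most: it had 98.6, 91.9 and 74.9 CPM in quintuple sink leaves, against 357, 304 and 350 CPM in WT, 3.77-fold lower (log2 fold -1.92 ± 0.16; edgeR adjusted p = 0.00376). LHCB1.2, one of the major trimer genes, had 2508, 3160 and 2505 CPM in the quintuple mutant, against 7661, 9160 and 7897 CPM in WT (log2 fold -1.58 ± 0.16; edgeR adjusted p = 0.00376). The exception was LHCB1.4, with 1089, 3173 and 3336 CPM in the quintuple mutant, against 4954, 6721 and 4588 CPM in WT: its groups did not overlap, but its first quintuple library stood far below the others and its edgeR adjusted p was 0.077. The 10 PSB genes all fell, with a median log2 fold of -1.20. PSBS, the sensor of lumen acidity that dissipates excess light energy, had 625, 641 and 525 CPM, against 1610, 1578 and 1727 CPM in WT (log2 fold -1.44 ± 0.14; edgeR adjusted p = 0.00376). PSBW, a small membrane subunit, had 941, 1183 and 1019 CPM, against 2704, 2862 and 2536 CPM in WT (log2 fold -1.35 ± 0.15; edgeR adjusted p = 0.00376).

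The 7 floral organ markers summed to 0.719, 0.337 and 0.314 CPM in quintuple sink leaves, against 3.39, 3.72 and 4.57 CPM in WT. The 5 meristem and bud markers summed to 0.423, 3.52 and 5.08 CPM, against 0.409, 0.366 and 0.371 CPM in WT, nearly all of it BRC1 in quintuple replicates 2 and 3, and WUS and CLV3 were at 0 in all 6 libraries. The 4 senescing leaf markers overlapped, with 263, 112 and 227 CPM, against 157, 257 and 96.5 CPM in WT. Their part in the result was not tested. Leaving out any 1 library left 40 to 42 genes lower in quintuple sink leaves. With scaling by library totals alone the median of all tested genes moved to 0.44 and that of the 42 genes to -0.96; with that scaling 7046 tested genes were higher and 1050 lower in the quintuple mutant, beside 2285 and 2484 with TMM scaling.

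**Figure D2:**
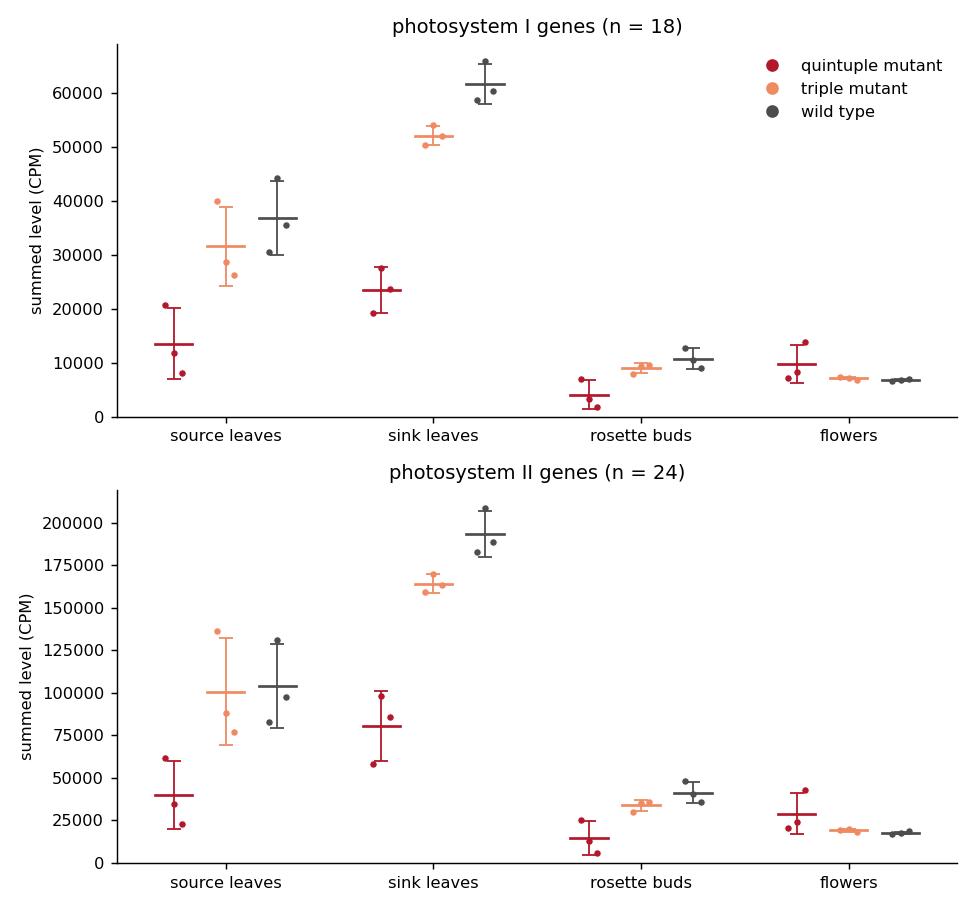
Summed level (CPM) of the 18 photosystem I genes (top) and the 24 photosystem II genes (bottom) in each library of the quintuple mutant, triple mutant and WT; points are libraries, and bars are the mean and SD of 3. In sink leaves the quintuple libraries reach at most 27607 CPM for photosystem I, against at least 58759 CPM in WT, and in flowers the third quintuple library is the highest.

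In source leaves of the quintuple mutant the median fall was as deep, but the libraries were scattered. The genes took 7.56%, 4.24% and 3.03% of all counts in the quintuple mutant, against 9.67%, 13.0% and 10.9% in WT. The median log2 fold was -1.41, or 2.66-fold lower, with a range of -2.04 to -0.87. Of the 42 genes, 23 were lower (13 of photosystem I and 10 of photosystem II) and none was higher, with 8.85% of all tested genes lower and 9.19% higher. Groups did not overlap for 41 of the 42 genes, beside 22.6% of all tested genes lower without overlap. Quintuple replicate 1 was the highest of its group for 41 genes and replicate 3 the lowest for all 42, so the spread was shared across the genes.

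LHCB2.2, a trimer gene, had the largest fold that passed: 1575, 602 and 332 CPM in quintuple source leaves, against 2557, 4532 and 3333 CPM in WT (log2 fold -2.04 ± 0.57; edgeR adjusted p = 0.0478). PSAE2, a stromal subunit beside PSAD, had 197, 140 and 112 CPM, against 328, 417 and 356 CPM in WT (log2 fold -1.29 ± 0.24; edgeR adjusted p = 0.019). LHCB1.4 had 357, 494 and 226 CPM, against 946, 1357 and 807 CPM in WT (log2 fold -1.53 ± 0.34; edgeR adjusted p = 0.0273). For these genes every quintuple library was below every WT library. PSAF, the subunit at which plastocyanin docks, had 1894, 1208 and 878 CPM, against 3114, 4236 and 3713 CPM in WT (log2 fold -1.47 ± 0.34; edgeR adjusted p = 0.0298). PSAD2 had the largest photosystem I fold, with 512, 260 and 159 CPM, against 871, 1306 and 1149 CPM in WT (log2 fold -1.83 ± 0.43; edgeR adjusted p = 0.0317). PSBO2, the second manganese-stabilising subunit, had 1369, 1129 and 847 CPM, against 1905, 2596 and 2087 CPM in WT (log2 fold -0.97 ± 0.26; edgeR adjusted p = 0.0431). Photosystem I genes passed more often than photosystem II genes in this tissue, but the share of genes that passed was not compared by a test.

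These source leaf calls changed with the library left out, and calls over all tested genes are not given for those fits. Without quintuple replicate 1 all 42 genes passed, without quintuple replicate 3 only 9 did, and none passed without quintuple replicate 2 or without any 1 of the 3 WT libraries. With the replicate number as a block none passed, but that fit called only 14 higher and 11 lower of all 18907 tested genes. The DESeq2 test called 41, beside 2671 of all tested genes lower. A fit of all 9 source leaf libraries called 38, beside 2622 lower of 19206 tested genes. The senescing leaf markers moved with this group. The 4 of them summed to 415, 942 and 664 CPM in quintuple source leaves, against 309, 302 and 233 CPM in WT. SAG13, a senescence-associated dehydrogenase, was the 1 of 4 that passed (log2 fold 2.47 ± 0.42). SAG12, a cysteine protease that marks advanced leaf senescence, had 4.13, 47.5 and 32.3 CPM, against 0, 3.74 and 0 CPM in WT. Their part in the result was not tested.

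In rosette buds of the quintuple mutant none of the 42 genes passed. All 42 had a log2 fold below 0, with a median of -1.39 and a range of -2.44 to -1.02, and the quintuple and WT libraries did not overlap for any of the 42, beside 19.6% of all tested genes lower without overlap. Few genes passed edgeR's test in this comparison at all: 0.568% of tested genes were lower and 1.7% higher (2.27% in either direction). By unadjusted p under 0.05, 35 of the 42 were lower, and so were 12.1% of all tested genes. The DESeq2 test called more in general: 33 of the 42 genes were lower, beside 1613 lower and 2399 higher of the 20417 tested genes. The share of counts was 4.26%, 2.14% and 1.06% in the quintuple mutant, against 6.97%, 5.87% and 5.53% in WT.

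Replicate 1 of the quintuple buds was the highest of its group for all 42 genes and replicate 3 the lowest for all 42. LHCA3, a photosystem I antenna protein, had 729, 393 and 222 CPM in quintuple buds, against 1340, 1147 and 975 CPM in WT (log2 fold -1.32 ± 0.42; edgeR adjusted p = 0.111). LHCB4.3 had 35.9, 17.0 and 15.2 CPM, against 79.2, 66.4 and 56.3 CPM in WT (log2 fold -1.52 ± 0.34; edgeR adjusted p = 0.063). PSAE2 had 108, 70.6 and 46.9 CPM, against 175, 150 and 146 CPM in WT (log2 fold -1.02 ± 0.29; edgeR adjusted p = 0.0901). In each of these the third quintuple library was lowest, and PSBR showed the same order with 296, 189 and 131 CPM, against 543, 454 and 397 CPM in WT (edgeR adjusted p = 0.0844). Without quintuple replicate 1 all 42 genes passed, and calls over all tested genes are not given for that fit.

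Marker sums of other organs differed between these groups. The 7 floral organ markers summed to 13.7, 2.28 and 0.367 CPM in quintuple buds, against 23.2, 28.1 and 32.0 CPM in WT buds. The 5 meristem and bud markers summed to 93.5, 191 and 250 CPM in quintuple buds, against 105, 95.7 and 128 CPM in WT buds. The 4 senescing leaf markers summed to 161, 131 and 210 CPM, against 46.0, 34.9 and 80.5 CPM in WT buds. Their part in the result was not tested.

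In flowers the direction turned. Of the 42 genes, 10 rose in the quintuple mutant and none fell (2 LHCA, 7 LHCB and 1 PSB gene), with 19.7% of all tested genes higher. The share of members that passed was therefore near the background. The median log2 fold was 0.57, or 1.49-fold higher, with a range of -0.30 to 2.81, and the share of counts was 3.44%, 3.79% and 6.67% in the quintuple mutant, against 2.59%, 2.75% and 2.85% in WT. The third quintuple library was the highest of its group for all 42 genes. Groups did not overlap for 26 of the 42 genes, all higher, beside 25.9% of all tested genes higher without overlap.

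LHCB1.4 had the largest fold, with 81.6, 290 and 1073 CPM in quintuple flowers, against 63.9, 71.6 and 72.4 CPM in WT (log2 fold 2.81 ± 0.81; edgeR adjusted p = 0.0319). All 3 quintuple libraries were above WT and they were far apart from each other. LHCB2.3 had 189, 296 and 681 CPM, against 120, 138 and 169 CPM in WT (log2 fold 1.47 ± 0.44; edgeR adjusted p = 0.0346). LHCB2.1, the main LHCB2 gene, had a tighter rise, with 999.8, 1164 and 1297 CPM, against 697, 787 and 836 CPM in WT (log2 fold 0.61 ± 0.16; edgeR adjusted p = 0.0227). In photosystem I, LHCA2, an antenna protein, had 789, 1042 and 1615 CPM, against 568, 575 and 554 CPM in WT (log2 fold 1.05 ± 0.25; edgeR adjusted p = 0.0163). LHCA6 had 27.8, 31.2 and 71.7 CPM, against 19.8, 20.01 and 22.4 CPM in WT (log2 fold 1.1 ± 0.34; edgeR adjusted p = 0.0402). None of the 12 PSA genes passed; PSAD2 came nearest, with 201, 258 and 386 CPM, against 182, 185 and 186 CPM in WT (edgeR adjusted p = 0.0576). PSBO2 was the 1 PSB gene that rose, with 370, 438 and 780 CPM, against 300, 302 and 312 CPM in WT (log2 fold 0.83 ± 0.27; edgeR adjusted p = 0.0452). At the other end stood PSBS, with 342, 262 and 477 CPM, against 458, 434 and 472 CPM in WT, a log2 fold of -0.30 ± 0.21 that did not pass.

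The flower calls also changed with the library left out, and calls over all tested genes are not given for those fits. None of the 42 genes passed without any 1 of the 3 WT flower libraries, and 18 rose and 1 fell without quintuple replicate 3. With the replicate number as a block 5 rose, beside 3487 of all tested genes, and without organellar loci 4, beside 3846. With the DESeq2 test 20 rose, beside 4655 of all tested genes, and in the fit of all 9 flower libraries 24, beside 5653. Markers of other tissues moved with this comparison. The 3 mature pollen markers summed to 864, 1213 and 240 CPM in quintuple flowers, against 5138, 4896 and 4811 CPM in WT, and all 3 fell. The 4 senescing leaf markers summed to 481, 743 and 594 CPM, against 122, 157 and 242 CPM in WT, and all 4 rose. Floral organ markers summed to 296, 346 and 238 CPM, against 448, 438 and 447 CPM in WT, with 3 of 7 lower. The lowest pollen and floral organ sums were in the third quintuple library, and the part of these markers in the result was not tested.

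**Figure D3:**
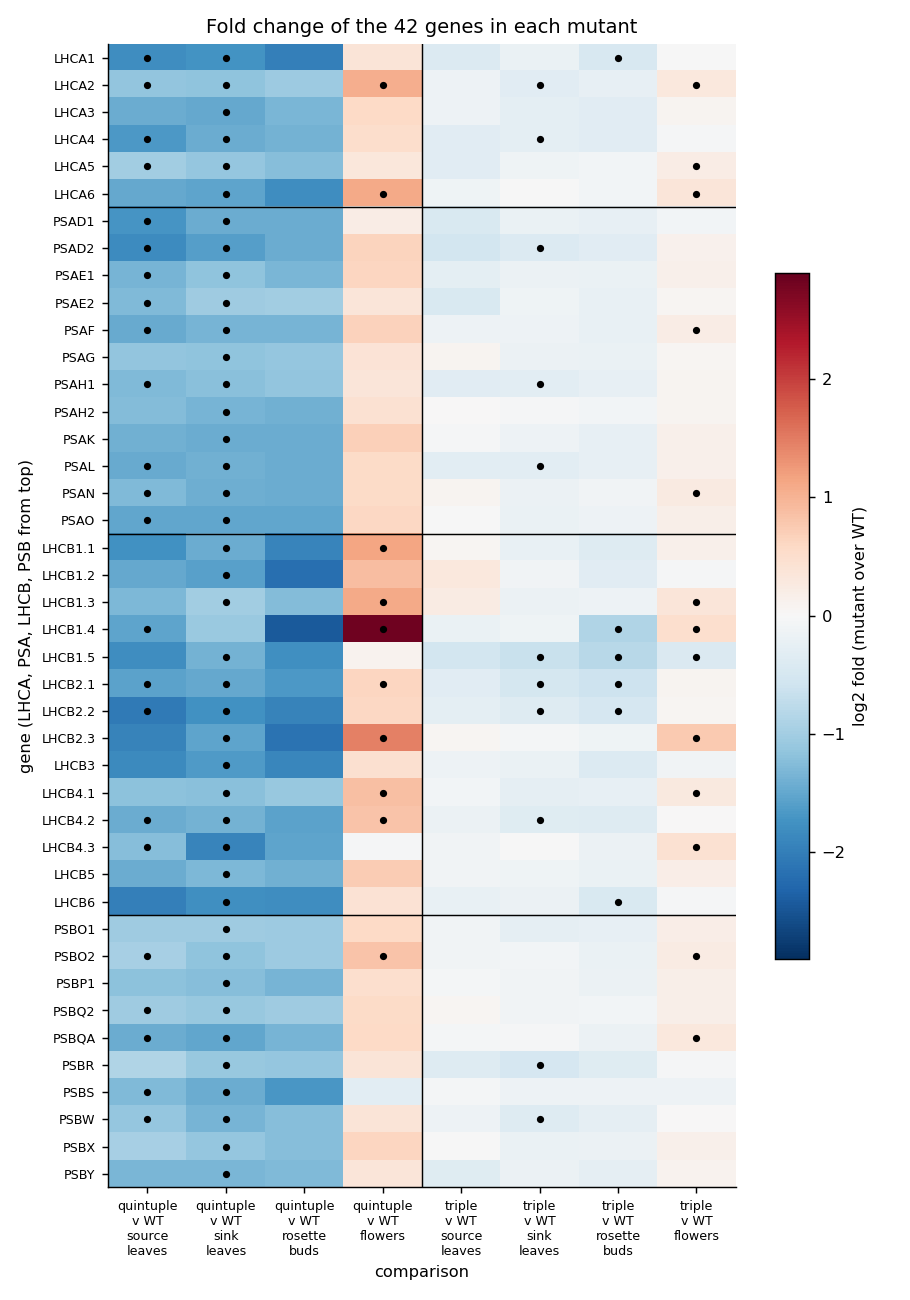
Log2 fold of each of the 42 genes (rows; LHCA, PSA, LHCB and PSB from the top) in the quintuple mutant over WT (left 4 columns) and in the triple mutant over WT (right 4 columns), with columns ordered as source leaves, sink leaves, buds and flowers; black dots mark genes with an edgeR adjusted p under 0.05. The first 3 quintuple columns hold negative values throughout, with 23, 41 and 0 dots, and the flower column holds values of -0.30 to 2.81 with 10 dots.

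Whether the quintuple mutation acted differently among the 4 tissues was tested by fitting interaction terms to the 24 libraries of that mutant and WT. The effect differed for 30 of the 42 genes (14 of photosystem I and 16 of photosystem II), with 23.2% of all tested genes called. The log2 effect in flowers exceeded that in source leaves by a median of 1.99 over the 42 genes, while the effect in sink leaves and in rosette buds differed from that in source leaves by medians of -0.06 and -0.07. LHCA2 (edgeR adjusted p = 0.00275) and PSAD2 (edgeR adjusted p = 0.0101) led in photosystem I, with flower effects above their source leaf effects by 2.16 and 2.43. PSBO2 (edgeR adjusted p = 0.00393) and LHCB1.4 (edgeR adjusted p = 0.0045) led in photosystem II, with 1.76 and 4.32. The count was 11, 11 and 12 without WT flower replicate 1, 2 and 3 and 9 without quintuple flower replicate 3. The 23.2% belongs to the fit of all 24 libraries, and calls over all tested genes are not given for these smaller fits. PSBS was among the genes for which the tissue difference did not pass (edgeR adjusted p = 0.42).

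By median log2 fold the triple mutant differed from WT far less in each tissue. More of the 42 genes passed in its buds and flowers than in those of the quintuple mutant. In source leaves no gene passed in either direction, with 8.86% of all tested genes higher and 7.51% lower, a median log2 fold of -0.14 and 2 genes at an unadjusted p under 0.05. DESeq2 called 2 genes lower there, beside 1737 lower of all 18795 tested genes. PSAE2 came nearest, with 313, 260 and 225 CPM in triple mutant source leaves, against 328, 417 and 356 CPM in WT (log2 fold -0.44 ± 0.16; edgeR adjusted p = 0.0856). Triple mutant replicate 1 was the highest of its group for all 42 genes, as in LHCB1.4, with 1581, 604 and 481 CPM, against 946, 1357 and 807 CPM in WT, and without that library 6 genes passed as lower.

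In sink leaves of the triple mutant 11 of 42 genes fell (5 of photosystem I and 6 of photosystem II) and none rose, with 12.1% of all tested genes lower. All 42 log2 folds were below 0, but the median was only -0.17. LHCB1.5 fell most, with 8255, 7080 and 7590 CPM in the triple mutant, against 11182, 12450 and 12167 CPM in WT (log2 fold -0.64 ± 0.09; edgeR adjusted p = 0.00268). LHCB2.1 had 5636, 5675 and 5779 CPM, against 7522, 8720 and 8377 CPM in WT (log2 fold -0.52 ± 0.09; edgeR adjusted p = 0.00506). PSBR had 1971, 2157 and 1954 CPM, against 2848, 2979 and 2689 CPM in WT (log2 fold -0.48 ± 0.10; edgeR adjusted p = 0.00891). In these genes the groups stood clear of each other. PSAD2 had the largest photosystem I fold, with 1348, 1375 and 1438 CPM, against 1571, 1952 and 1946 CPM in WT (log2 fold -0.39 ± 0.11; edgeR adjusted p = 0.0325). The 4 senescing leaf markers summed to 40.6, 24.9 and 34.1 CPM in triple mutant sink leaves, against 157, 257 and 96.5 CPM in WT, and the 7 floral organ markers to 1.62, 0.825 and 0.832 CPM, against 3.39, 3.72 and 4.57 CPM in WT. Neither pair of groups overlapped, and their part in the result was not tested. With library totals alone 7 genes fell, beside 1589 of all tested genes. In the fit of all 9 sink leaf libraries 3 fell, beside 1282 of all tested genes, and without 1 library 3 to 8. The count was 3 without WT replicate 2 or triple mutant replicate 3, and 7 without WT replicate 1 or 3 or triple mutant replicate 1.

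In rosette buds of the triple mutant 6 genes fell (LHCA1, LHCB1.4, LHCB1.5, LHCB2.1, LHCB2.2 and LHCB6) and none rose, with 8.86% of all tested genes lower, 7.62% higher and a median log2 fold of -0.23. LHCB1.5 had 1644, 1680 and 1822 CPM in the triple mutant, against 3128, 3003 and 2903 CPM in WT (log2 fold -0.81 ± 0.10; edgeR adjusted p = 0.00384). LHCB1.4 had 278, 390 and 367 CPM, against 819, 625 and 457 CPM in WT (log2 fold -0.87 ± 0.20; edgeR adjusted p = 0.0237). All 6 of these are antenna genes, LHCB6 being the monomeric antenna protein CP24, and no PSA or PSB gene passed. The log2 folds of all 42 genes were below 0, however. Their medians were -0.29 for LHCA, -0.37 for LHCB, -0.21 for PSA and -0.18 for PSB genes, and the classes were not compared by a test. The 5 meristem and bud markers summed to 77.2, 78.5 and 55.4 CPM in triple mutant buds, against 105, 95.7 and 128 CPM in WT, and the 4 senescing leaf markers to 19.96, 19.86 and 33.4 CPM, against 46.0, 34.9 and 80.5 CPM in WT. Neither pair of groups overlapped, and their part in the result was not tested. With the replicate number as a block 1 passed, beside 464 lower of all 20010 tested genes, and with DESeq2 10, beside 2036 lower. In the fit of all 9 bud libraries none passed, but that fit called 0 of all 20552 tested genes in either direction. Without WT replicate 1 or 2 or triple mutant replicate 1 or 3, 2 genes passed, and without triple mutant replicate 2, 1 did.

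In flowers of the triple mutant 12 genes rose and 1 fell, with 11% of all tested genes higher and 15.6% lower and a median log2 fold of 0.14. LHCB2.3 rose most, with 229, 253 and 232 CPM in triple mutant flowers, against 120, 138 and 169 CPM in WT (log2 fold 0.76 ± 0.12; edgeR adjusted p = 0.00116). LHCB4.3 had 195, 192 and 207 CPM, against 150, 136 and 157 CPM in WT (log2 fold 0.45 ± 0.08; edgeR adjusted p = 0.00207). In photosystem I, LHCA6 had 25.4, 26.5 and 26.0 CPM, against 19.8, 20.01 and 22.4 CPM in WT (log2 fold 0.35 ± 0.08; edgeR adjusted p = 0.00934). PSBQA, an extrinsic subunit of the oxygen-evolving complex, had 327, 342 and 321 CPM, against 268, 272 and 274 CPM in WT (log2 fold 0.31 ± 0.07; edgeR adjusted p = 0.00738). In all 4 the groups stood apart. LHCB1.5 was the gene that fell, with 1327, 1242 and 1285 CPM, against 1643, 1742 and 1833 CPM in WT (log2 fold -0.41 ± 0.08; edgeR adjusted p = 0.00386).

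The flower count in the triple mutant moved with the settings. With library totals alone 23 genes rose, beside 4253 higher and 2723 lower of all 21476 tested genes. That scaling also moved the median of all tested genes to 0.10. In the fit of all 9 flower libraries 1 rose and none fell, beside 588 higher and 1050 lower of all 22076 tested genes. Without WT replicate 1 and 2, 6 and 7 rose, in fits for which calls over all tested genes are not given. The 3 mature pollen markers summed to 2010, 1719 and 1830 CPM in triple mutant flowers, against 5138, 4896 and 4811 CPM in WT, and all 3 fell; the 4 senescing leaf markers summed to 57.4, 90.9 and 42.4 CPM, against 122, 157 and 242 CPM in WT, and 3 fell. Their part in the result was not tested. For none of the 42 genes did the triple mutation's effect differ between tissues (16.4% of all tested genes called; 3 of the 42 at an unadjusted p under 0.05, and 1 with DESeq2). Without triple mutant source leaf replicate 1 the count was 5, and with library totals alone it was 7. Neither count has calls over all tested genes beside it.

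Set against the triple mutant directly, the quintuple mutant was lower for 41 of 42 genes in sink leaves (20.7% of all tested genes lower, 43.8% in either direction) and for 39 of 42 in source leaves (18.3%), with median log2 folds of -1.14 and -1.28. LHCA1 had 1244, 1567 and 1445 CPM in quintuple sink leaves, against 4179, 3990 and 4159 CPM in triple mutant sink leaves (log2 fold -1.50 ± 0.14; edgeR adjusted p = 0.000166). In source leaves PSAF had 1894, 1208 and 878 CPM in the quintuple mutant, against 3995, 3069 and 2760 CPM in the triple mutant (log2 fold -1.33 ± 0.31; edgeR adjusted p = 0.0137). The sink leaf count was 40 to 42 without 1 library. The source leaf count was 0 without quintuple replicate 2, 6 without quintuple replicate 3 and 1 and 3 without triple mutant replicate 1 and 2. No calls over all tested genes are given for those fits.

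In rosette buds 8 of 42 genes were lower in the quintuple than in the triple mutant (15.7% of all tested genes lower), with a median log2 fold of -1.17. LHCB4.3 had the smallest p there, with 35.9, 17.0 and 15.2 CPM in quintuple buds, against 52.8, 56.5 and 69.5 CPM in triple mutant buds (log2 fold -1.35 ± 0.30; edgeR adjusted p = 0.0168). The count of 8 was 30 with the replicate number as a block, beside 3417 lower of all 20552 tested genes, and 38 with DESeq2, beside 4880. It was 42 without quintuple replicate 1, 1 without quintuple replicate 3 and 0 without quintuple replicate 2 or any 1 triple mutant library. For these fits without 1 library, calls over all tested genes are not given. In flowers 14 genes were higher and 1 lower in the quintuple than in the triple mutant (19.5% of all tested genes higher and 14.5% lower, 34.1% in either direction). The lower one was again LHCB4.3, with 143, 133 and 145 CPM in quintuple flowers, against 195, 192 and 207 CPM in triple mutant flowers (log2 fold -0.45 ± 0.09; edgeR adjusted p = 0.00639). The flower count of 14 was 8 with the replicate number as a block, beside 3975 higher of all 22076 tested genes. It was 8 without the filter on low counts, beside 4231 of 26511, and 7 with library totals alone, beside 3757 of 22076. In these 3 fits the share of members called was near that of all tested genes. The flower count was 27 without quintuple replicate 1 and 2, 4 and 1 without triple mutant replicates 1, 2 and 3. Again no calls over all tested genes are given without 1 library.

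LHCB1.4 and LHCB1.5 lie head to head on chromosome 2, LHCB1.5 ending its window at base 14523868 and LHCB1.4 opening its own at base 14524307, and their coding sequences are 92.5% identical over 795 aligned bases. In quintuple flowers LHCB1.4 had a log2 fold of 2.81 ± 0.81, while LHCB1.5, with 1737, 1596 and 2171 CPM against 1643, 1742 and 1833 CPM in WT, had 0.11 ± 0.17 and did not pass. In triple mutant flowers LHCB1.4 had 88.4, 114 and 83.7 CPM, against 63.9, 71.6 and 72.4 CPM in WT, and rose (log2 fold 0.48 ± 0.11; edgeR adjusted p = 0.0122), while LHCB1.5 fell. In triple mutant sink leaves LHCB1.5 fell, and LHCB1.4, with 5356, 4888 and 4706 CPM against 4954, 6721 and 4588 CPM in WT, had a log2 fold of -0.11 ± 0.14. In other comparisons the values of the pair were alike: both fell in triple mutant buds (log2 folds -0.87 and -0.81), and their log2 folds in the quintuple mutant were -1.09 and -1.36 in sink leaves, -1.53 and -1.79 in source leaves and -2.44 and -1.77 in buds, LHCB1.4 first. The difference between the 2 genes within a comparison was not tested.

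**Figure D4:**
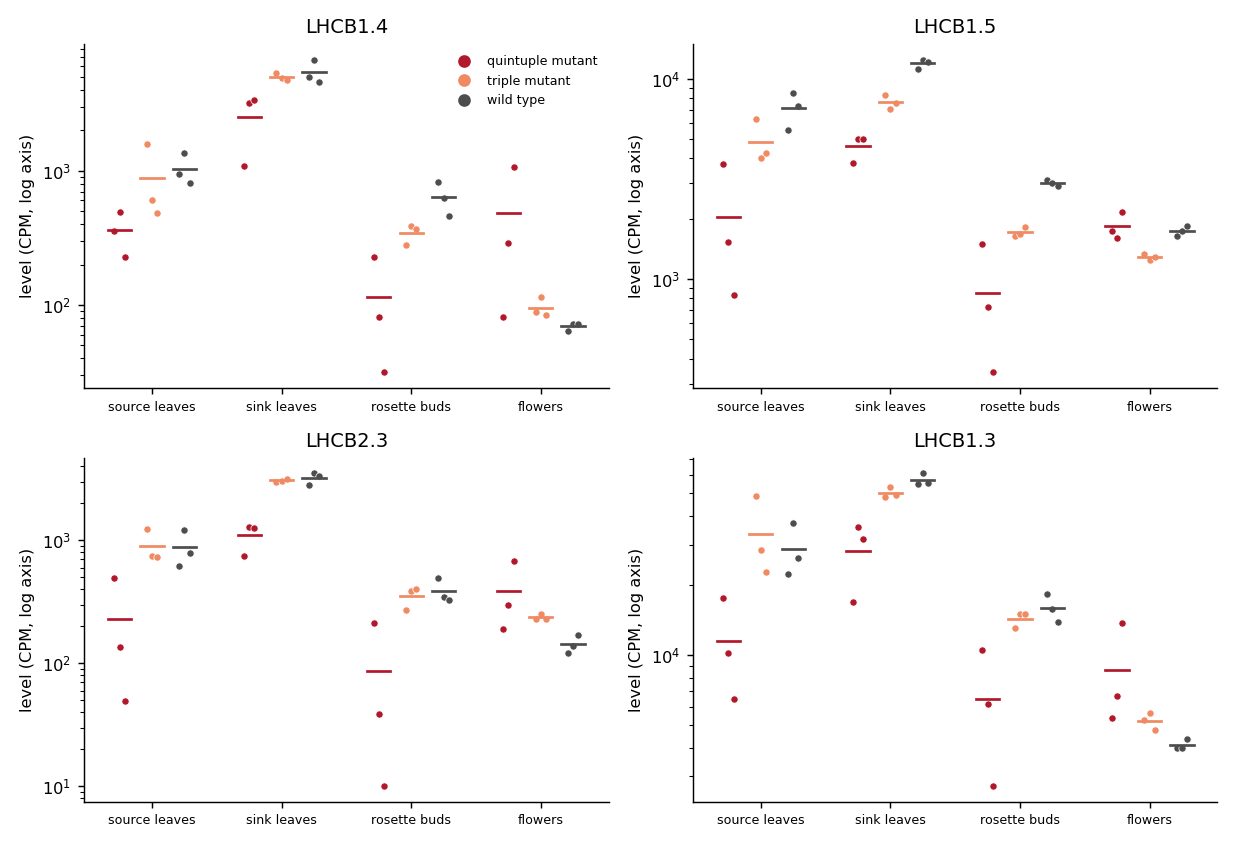
Level (CPM, log axis) of LHCB1.4, LHCB1.5, LHCB2.3 and LHCB1.3 in each library of the quintuple mutant, triple mutant and WT in 4 tissues; points are libraries and bars are means of 3. LHCB1.4 runs between 81.6 and 1073 CPM in quintuple flowers, against 63.9 to 72.4 CPM in WT, whereas LHCB1.5 stays between 1596 and 2171 CPM, against 1643 to 1833 CPM in WT.

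Reads of such copies can be divided among them in counting. LHCB1.1, LHCB1.2 and LHCB1.3 are 95.7 to 96.4% identical in coding sequence, and LHCB2.1 and LHCB2.2 are 92.9% identical. LHCB1.4 and LHCB1.5 share an unbroken run of 122 coding bases, the longest in the LHCB1 family, so the single values of all these genes are uncertain, the contrast of LHCB1.4 with LHCB1.5 included. The 5 LHCB1 genes were therefore also summed. Their summed log2 fold in the quintuple mutant was -1.17 ± 0.25 in sink leaves (edgeR adjusted p = 0.0156), -1.46 ± 0.53 in source leaves (edgeR adjusted p = 0.0898), -1.48 ± 0.60 in rosette buds (edgeR adjusted p = 0.163) and 0.94 ± 0.35 in flowers (edgeR adjusted p = 0.0711). The summed LHCB2 genes had -1.59 ± 0.18 in sink leaves (edgeR adjusted p = 0.00379), -1.73 ± 0.49 in source leaves (edgeR adjusted p = 0.049), -1.82 ± 0.69 in rosette buds (edgeR adjusted p = 0.145) and 0.72 ± 0.22 in flowers (edgeR adjusted p = 0.0408). In the triple mutant the summed LHCB2 genes fell in sink leaves (log2 fold -0.38 ± 0.09; edgeR adjusted p = 0.0172) and the summed LHCB1 genes passed in no tissue. In addition, 16 of the 42 genes overlap another counted locus, LHCB1.3, LHCB1.5, LHCB2.3, PSAD2, PSAE2 and PSBR among them, and no source used here says how strand was treated in counting.

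Photosystem I and photosystem II were also summed apart. The ratio of summed photosystem II to summed photosystem I CPM was 2.91 ± 0.090 in quintuple, 3.15 ± 0.24 in triple mutant and 2.80 ± 0.14 in WT source leaves (SD, n = 3 each). In sink leaves it was 3.41 ± 0.32 in the quintuple, 3.15 ± 0.0092 in the triple mutant and 3.14 ± 0.033 in WT, and in rosette buds 3.54 ± 0.26 in quintuple, 3.78 ± 0.043 in triple mutant and 3.85 ± 0.090 in WT libraries. In flowers it was 2.93 ± 0.14 in the quintuple, 2.69 ± 0.034 in the triple mutant and 2.62 ± 0.055 in WT. The summed photosystem I level in quintuple sink leaves was 31.0%, 44.8% and 38.3% of the WT mean, and that of photosystem II was 30.1%, 50.7% and 44.3%. The ratio was not tested.

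Other genes of photosynthesis moved with the photosystem genes in quintuple sink leaves. All 12 listed electron transport and ATP synthase genes fell (median log2 fold -1.05), among them PETE2, which encodes plastocyanin (-1.39 ± 0.15), and FD1, a ferredoxin (-1.40 ± 0.16). All 14 Rubisco and Calvin cycle genes fell (median -1.09), led by RBCS2B, a Rubisco small subunit (-1.65 ± 0.16). Of 14 chlorophyll synthesis genes 10 fell (median -0.71), among them GUN4, an activator of magnesium chelatase (-1.15 ± 0.14), and of 15 other photosystem and assembly genes 10 fell (median -0.57), among them CURT1A, which bends thylakoid margins (-1.25 ± 0.14). None of the 5 chlorophyll breakdown genes passed. These lists are read beside the 12.9% of all tested genes that were lower.

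In quintuple source leaves the same lists had medians of -0.93 (3 of 12 lower), -0.88 (1 of 14), -0.91 (2 of 14, with 13 tested) and -0.58 (4 of 15), in the order just given, beside 8.85% of all tested genes lower. In quintuple rosette buds their medians were -1.10, -1.38, -0.89 and -0.68 with none passed, and in quintuple flowers they were 0.45 (3 of 12 higher), 0.77 (9 of 14), 0.64 (8 of 14) and 0.49 (6 of 15), beside 19.7% of all tested genes higher. In quintuple flowers PORA, a protochlorophyllide reductase known from greening seedlings, had a log2 fold of 4.05 ± 0.57, and HEMA1, which starts tetrapyrrole synthesis, 1.07 ± 0.24. In triple mutant flowers 13 of 14 Rubisco and Calvin cycle genes rose (median 0.43) and 8 of 14 chlorophyll synthesis genes rose (median 0.27), while all 5 chlorophyll breakdown genes fell (median -0.55), beside 11% of all tested genes higher and 15.6% lower. In the fit of all 9 flower libraries 588 tested genes were higher and 1050 lower, and these lists were not counted in that fit. SGR1, which extracts magnesium from chlorophyll, led the breakdown genes there (-0.87 ± 0.09). In triple mutant sink leaves 7 of 14 chlorophyll synthesis genes rose, beside 12.4% of all tested genes higher, while none of the 12 electron transport genes fell and 1 rose.

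**Figure D5:**
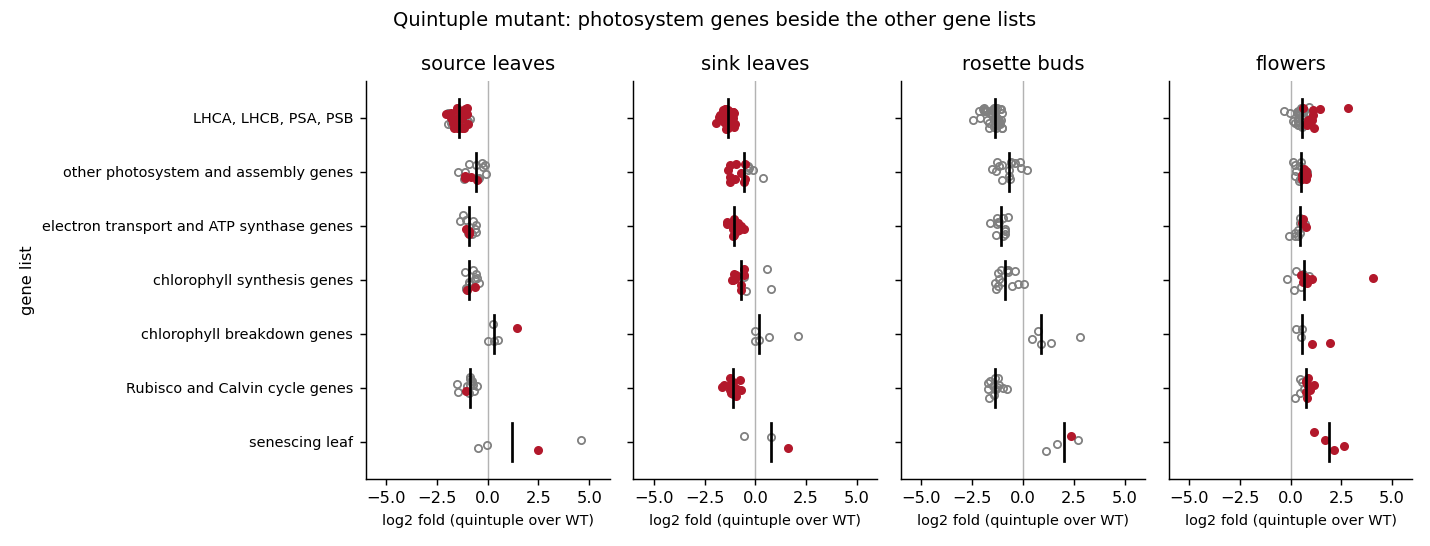
Log2 fold in the quintuple mutant over WT of the 42 photosystem genes and of 6 other lists, with panels for source leaves, sink leaves, buds and flowers; each circle is a gene, red where the edgeR adjusted p was under 0.05, and the black line is the median of the list. The medians of the photosynthesis lists, chlorophyll breakdown apart, lie below 0 in leaves and buds, with values of -1.36 for the 42 genes and -1.09 for Rubisco and Calvin cycle genes in sink leaves, and above 0 in flowers.

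The GLK activators did not pass the test in quintuple sink leaves. GLK1 had 405, 391 and 299 CPM in quintuple sink leaves, against 452, 481 and 426 CPM in WT, a log2 fold of -0.30 ± 0.16 that did not pass, and GLK2 had -0.21 ± 0.15, which did not pass either. In quintuple flowers both rose: GLK1 had 49.5, 45.0 and 101 CPM, against 16.0, 17.0 and 15.9 CPM in WT (log2 fold 2.03 ± 0.30; edgeR adjusted p = 0.00244), and GLK2 had 35.8, 39.9 and 61.1 CPM, against 20.8, 22.8 and 19.9 CPM in WT (log2 fold 1.14 ± 0.20; edgeR adjusted p = 0.00444). The third quintuple flower library was the highest for both, as it was for the photosystem genes. In triple mutant flowers GLK1 rose (log2 fold 0.67 ± 0.14; edgeR adjusted p = 0.00755) and GLK2 did not pass (-0.18 ± 0.10). In quintuple source leaves the log2 folds were -0.59 for GLK1 and -0.58 for GLK2, and in quintuple buds -0.87 for GLK1 and -0.09 for GLK2, none of which passed. Of the 8 listed regulators 2 fell in quintuple sink leaves and 4 rose in quintuple flowers, and of 9 clock genes 2 rose and 1 fell in sink leaves and 1 rose and 2 fell in flowers. Of all tested genes 11.9% were higher and 12.9% lower in sink leaves, and 19.7% were higher and 18.8% lower in flowers. Both light stress genes (ELIP1 and ELIP2) fell in quintuple flowers.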

How the data were processed

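Poly-A RNA of 36 libraries was sequenced after stranded library preparation from 500 ng of total RNA, per the labels' protocols. The authors deposited 8 tables of raw counts over 28775 loci; the submitters' processing notes name Salmon 0.7.2, R 3.5.1, SAMtools 0.1.18, edgeR, DESeq2 and TAIR10, without their roles. Whether the counts are rounded estimates and whether strand was used are not given in the sources used here.

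Groups came from the sample titles, and each column was matched to its sample by name. Libraries of each comparison were filtered (filterByExpr), scaled by TMM and tested with edgeR 4.0.16 (quasi-likelihood F test, R 4.3.3) over all loci, with Benjamini-Hochberg adjusted p under 0.05 as the threshold; standard errors are the log2 fold divided by the square root of F. Genotype by tissue terms were tested in 24 libraries per mutant. The fitting code was tested on simulated data. CPM are on a TMM scale over 36 libraries, and per-kb values use the exon union of RefSeq TAIR10.1. Alternatives were DESeq2 1.42.0, other scaling, no filter, no organellar loci, a replicate block, all 9 libraries of a tissue and leaving out each library. The labels do not say whether equal replicate numbers were harvested together. Correlations of deviations between equal numbers all exceeded 0.1 only for WT sink and source leaves (0.180, 0.181 and 0.331). Triple mutant and WT sink leaves came near (0.212, 0.100 and 0.197), and such correlations cannot show how samples were harvested.

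In each comparison the genes given by library are those with the smallest p per class and the largest fold per photosystem, and further genes were picked after their values were seen. The members and lists were chosen with earlier results of these data known.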

Additional observations from a re-analysis of the deposited data

Results flagged for a closer look

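The effect of the quintuple mutation differed between tissues for 30 of the 42 genes. The 4 genes with the smallest p per photosystem were LHCA2 (edgeR adjusted p = 0.00275), PSAD2 (edgeR adjusted p = 0.0101), PSBO2 (edgeR adjusted p = 0.00393) and LHCB1.4 (edgeR adjusted p = 0.0045), each with a higher log2 fold in flowers than in source leaves. No explanation was tested.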

How the results depend on the processing

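The sink leaf falls in the quintuple mutant and the WT tissue differences stayed within 1.5 times their counts under every alternative run; the cause of the changes below was not tested. With library totals alone, triple mutant counts were 23 higher in flowers, 7 lower in sink leaves, 3 lower in source leaves and 7 for the tissue difference. In quintuple over triple mutant flowers 7 were higher. Of all tested genes 4253, 1589, 802 and 3757 were called there in the same directions, the tissue difference apart. Without the filter on low counts 8 were higher in quintuple over triple mutant flowers, beside 4231 of all tested genes. Without organellar loci 4 rose in quintuple flowers, beside 3846. DESeq2 gave 10 lower in triple mutant buds, 2 in triple mutant source leaves and 1 for the triple mutant's tissue difference. It gave 20 higher in quintuple flowers, 33 and 41 lower in quintuple buds and source leaves, and 38 lower in quintuple over triple mutant buds. Of all tested genes it called 2036 and 1737 lower in triple mutant buds and source leaves and 4655 higher in quintuple flowers. Likewise it called 1613 and 2671 lower in quintuple buds and source leaves and 4880 lower in quintuple over triple mutant buds. With all 9 libraries of a tissue, the triple mutant had 1 higher and 0 lower in flowers, 0 lower in buds and 3 lower in sink leaves. In triple mutant buds that fit called 0 of all 20552 tested genes. The quintuple mutant had 24 higher in flowers, 18 lower in buds and 38 lower in source leaves, beside 5653, 1367 and 2622 of all tested genes. With the replicate number as a block, 1 was lower in triple mutant buds, 5 higher in quintuple flowers and 1 and 0 lower in quintuple buds and source leaves. That block left 64 of all tested genes lower in quintuple buds and 11 in quintuple source leaves. For quintuple over triple mutant, 8 were higher in flowers and 30 lower in buds with the block, beside 3975 and 3417 of all tested genes. The labels do not say whether equal replicate numbers were harvested together. For WT sink over source leaves the count with the block was 35, beside 2760 of all tested genes higher. Leaving out 1 library, the triple mutant had 6 to 9 higher and 1 lower in flowers, 1 to 9 lower in buds, 3 to 8 in sink leaves, 0 to 6 in source leaves and 0 to 5 for the tissue difference. The quintuple mutant had 0 to 18 higher and 0 to 1 lower in flowers, 0 to 42 lower in buds, 40 to 42 in sink leaves, 0 to 42 in source leaves and 9 to 42 for the tissue difference. Quintuple over triple mutant had 1 to 27 higher and 1 to 2 lower in flowers, 0 to 42 lower in buds, 40 to 42 in sink leaves and 0 to 41 in source leaves. WT sink leaves had 28 to 39 higher. Calls over all tested genes are not given for any fit without 1 library. Tested alone, LHCB1.5 had a log2 fold of -0.41 in triple mutant flowers, against 0.16 for the summed LHCB1 genes.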
